A study of Mus musculus with 8 samples.

Results

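The genes of mitosis and the spindle were followed in mouse embryonic stem cells (ES cells) and in day 2 embryoid bodies (EBd2), the aggregates in which ES cells leave pluripotency. They are 48 genes of 36255 in the deposited table of read counts, picked by symbol for their known part in entry into mitosis, the spindle, the kinetochore or cytokinesis. All 48 were found in the table and passed the filter on low counts, which left 16542 genes for testing. The lowest count of any of the 48 in any library was 149. They were sorted by textbook function into 7 role groups, which order the results.

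The series compared cells labelled KO for Skp1a with cells labelled fl/fl, meaning that both copies of Skp1a carry the floxed allele, which the series design calls wild type. Skp1a encodes SKP1, the adaptor through which the CUL1 scaffold of SCF ubiquitin ligases holds F-box proteins. The 4 groups were KO-labelled EBd2 (lots 1 and 2), fl/fl EBd2 (lots 1 and 12), KO-labelled ES cells (lots 1 and 12) and fl/fl ES cells (lots 1 and 2), with n = 2 libraries of poly(A)-selected RNA in each. No source used here says how Skp1a was deleted, from which strain and how many clones the cells came, or what a lot is. The p-values therefore cover the spread between 2 libraries, and that spread may be technical. The tissue field calls every KO library ES cells and every fl/fl library embryoid body, against the sample titles, and the groups follow the titles.

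Libraries held 7858452 to 10055667 counts in EBd2 and 21545868 to 23343471 counts in ES cells. Levels are CPM, which sets counts relative to library totals scaled by the trimmed mean of M values (TMM), and libraries of 1 group differed by more than sampling noise, so none were merged. The check of the targeted gene was weak: Skp1a averaged 287.7 ± 2.67 CPM in KO-labelled and 395.3 ± 8.74 CPM in fl/fl EBd2 (SD, n = 2). In ES cells Skp1a averaged 365.1 ± 5.35 CPM in KO-labelled and 425.2 ± 7.19 CPM in fl/fl libraries. Whether the counted reads lie in the deleted exons is not given, so these levels do not settle the genotype. Epiblast markers (Fgf5, Otx2, Pou3f1 and Dnmt3b) summed to 305.5 and 320.5 CPM in KO-labelled EBd2 and to 1667 and 1784 CPM in fl/fl EBd2, with 170.4 to 204.1 CPM in the 4 ES cell libraries. A feeder fibroblast list of 8 genes (Col1a1, Col1a2, Col3a1, Thy1, Acta2, Postn, Lum and Dcn) summed to 136.9 and 152.9 CPM in KO-labelled EBd2 and to 40.32 and 45.09 CPM in fl/fl EBd2, with 527.4 to 648.2 CPM in ES cells and 1 gene at 0 in 1 library of each EBd2 group.

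Entry into mitosis is driven by the kinase CDK1 with its cyclins. WEE1 and PKMYT1 hold CDK1 inactive by phosphorylating it, and the CDC25 phosphatases undo this. On the spindle, the NDC80 complex (the products of Ndc80, Nuf2, Spc24 and Spc25) ties kinetochores to microtubules. Checkpoint proteins restrain CDC20 until all chromosomes are attached, and the anaphase-promoting complex (APC/C) with CDC20 or CDH1 then destroys cyclins and securin. Aurora B with INCENP, survivin and borealin forms the chromosomal passenger complex, which corrects attachments. Cytokinesis is then set up by centralspindlin (KIF23 and RACGAP1), PRC1, ECT2 and anillin. Transcripts of many of these genes peak late in the cell cycle, when the MuvB complex with B-MYB and FOXM1 acts on a promoter element called the cell cycle genes homology region (CHR), often next to CCAAT boxes bound by NF-Y. ES cells cycle fast, with a short G1 phase.

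RefSeq promoter windows (GRCm38.p6, 250 bases before to 50 after each start site) were at hand for 39 of the 48 genes. Both strands were searched for the CHR hexamer TTTGAA, its variant TTCGAA, the CCAAT box CCAAT and the E2F core TTCCCGC, and matches may overlap each other. A gene with several windows was counted once if any of them held the motif. The CHR hexamer was present for 27 of 39 genes (69.2%), against 20.2% of all 27025 genes with a window and 14.7% of the 11878 tested genes with one. A CCAAT box was present for 29 (74.4%, against 41.1% of all genes), both motifs for 23 (59.0%, against 8.97%), the variant for 4 (10.3%, against 1.8%) and the E2F core for 0 (against 5.29%). The nearest CHR hexamer began at a median of position 7 in the 27 genes, counted from the first transcribed base at 0, and within 100 bases of it in 26. Over all 4893 genes with the hexamer in their first window, the median was position -116 and 44.6% were within 100 bases. Positions and spacings were taken from the first window of each gene. In the 23 genes with both motifs, the closest pair lay a median of 25 bases apart. Such matches describe the letters of a window and not a bound site.

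The windows below belong to genes that carry the results that follow. Hmmr and Prc1 were among the 4 largest falls at the EBd2 stage in fl/fl cells. Kif23, Ndc80 and Cdk1 were higher in KO-labelled than in fl/fl EBd2, Ect2 was lower there, and Nusap1 had the largest difference with none of the 4 motifs in its window. Sequences are written 5′ to 3′ along the gene's strand, with CHR hexamers and CCAAT boxes of either strand in capitals (TTCAAA and ATTGG are the other strand's forms).
Hmmr, chr11:40733388-40733687, minus strand: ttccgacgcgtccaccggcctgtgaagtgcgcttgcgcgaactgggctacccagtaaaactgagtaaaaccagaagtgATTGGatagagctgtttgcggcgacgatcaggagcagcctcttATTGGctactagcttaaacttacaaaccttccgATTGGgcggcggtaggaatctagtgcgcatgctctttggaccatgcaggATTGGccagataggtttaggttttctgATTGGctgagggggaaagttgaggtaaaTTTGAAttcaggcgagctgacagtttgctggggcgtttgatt
Prc1, chr7:80294201-80294500, plus strand: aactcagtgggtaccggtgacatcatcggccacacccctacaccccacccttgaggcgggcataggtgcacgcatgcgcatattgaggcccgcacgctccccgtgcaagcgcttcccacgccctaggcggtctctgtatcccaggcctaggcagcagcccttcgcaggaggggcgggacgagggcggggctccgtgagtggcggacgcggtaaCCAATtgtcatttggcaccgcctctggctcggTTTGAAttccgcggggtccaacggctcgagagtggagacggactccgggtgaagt
Kif23, chr9:61946750-61947049, minus strand: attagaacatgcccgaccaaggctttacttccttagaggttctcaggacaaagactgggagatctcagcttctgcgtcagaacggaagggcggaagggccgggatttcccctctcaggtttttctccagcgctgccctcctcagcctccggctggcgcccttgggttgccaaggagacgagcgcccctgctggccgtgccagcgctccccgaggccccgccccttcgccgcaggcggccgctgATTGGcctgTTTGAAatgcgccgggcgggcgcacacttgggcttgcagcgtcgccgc
Ndc80, chr17:71526808-71527107, minus strand: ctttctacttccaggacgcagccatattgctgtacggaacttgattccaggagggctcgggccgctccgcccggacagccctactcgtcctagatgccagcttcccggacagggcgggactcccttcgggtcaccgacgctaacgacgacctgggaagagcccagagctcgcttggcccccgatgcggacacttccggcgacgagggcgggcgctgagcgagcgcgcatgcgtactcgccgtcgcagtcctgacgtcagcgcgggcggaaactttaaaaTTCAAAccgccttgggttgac
Cdk1, chr10:69352863-69353162, minus strand: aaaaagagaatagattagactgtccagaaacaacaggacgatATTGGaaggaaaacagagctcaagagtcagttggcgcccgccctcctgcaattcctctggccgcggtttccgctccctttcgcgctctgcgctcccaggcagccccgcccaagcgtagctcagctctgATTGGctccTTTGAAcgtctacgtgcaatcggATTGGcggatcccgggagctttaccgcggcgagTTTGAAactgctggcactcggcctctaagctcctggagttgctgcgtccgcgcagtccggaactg
Ect2, chr3:27153829-27154128, minus strand: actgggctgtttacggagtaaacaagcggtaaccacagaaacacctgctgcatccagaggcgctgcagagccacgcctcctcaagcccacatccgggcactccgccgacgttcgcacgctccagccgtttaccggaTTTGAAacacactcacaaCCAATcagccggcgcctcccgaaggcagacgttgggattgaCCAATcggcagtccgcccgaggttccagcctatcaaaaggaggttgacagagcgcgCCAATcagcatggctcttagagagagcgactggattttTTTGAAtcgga
Nusap1, chr2:119618048-119618347, plus strand: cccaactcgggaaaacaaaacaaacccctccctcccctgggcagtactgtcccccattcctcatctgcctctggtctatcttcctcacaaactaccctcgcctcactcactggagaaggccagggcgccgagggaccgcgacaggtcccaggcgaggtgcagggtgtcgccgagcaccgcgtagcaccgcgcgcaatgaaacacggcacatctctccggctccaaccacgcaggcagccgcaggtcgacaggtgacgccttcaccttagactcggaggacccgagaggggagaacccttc

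**Figure D1:**
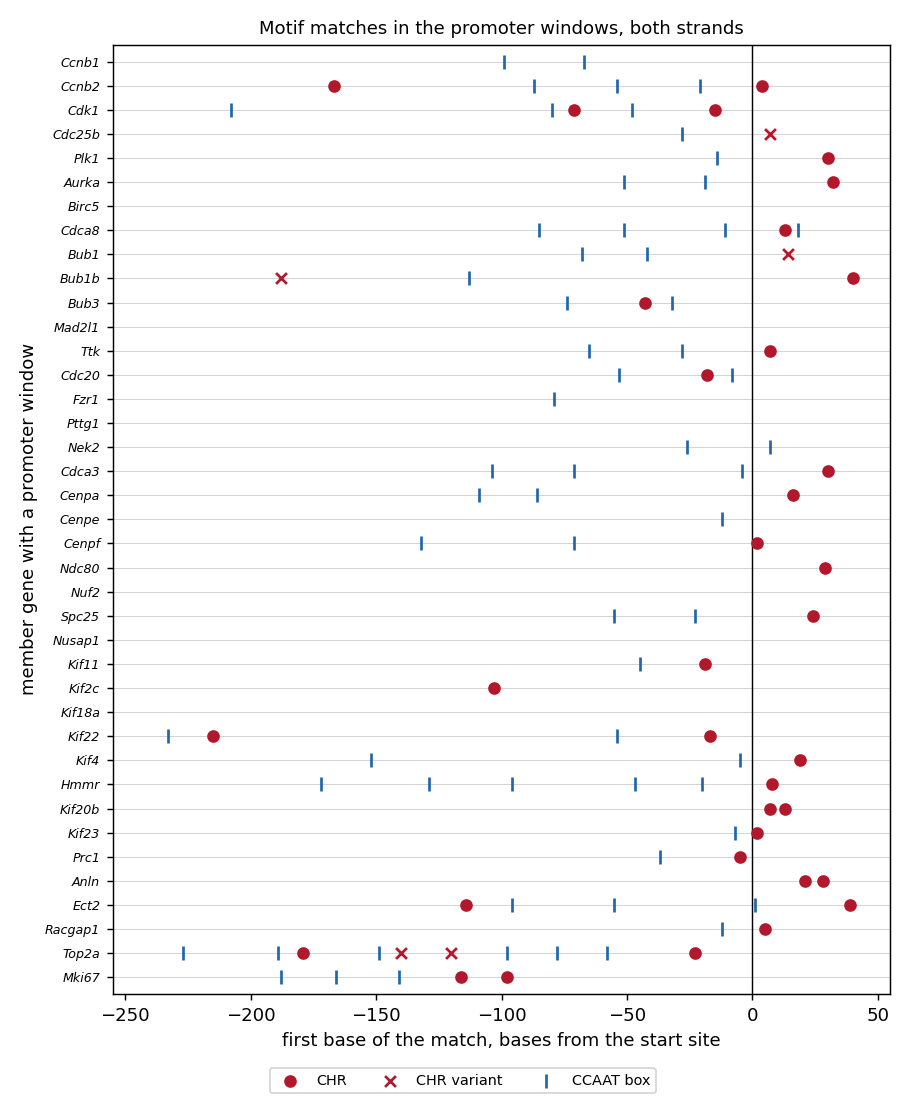
Positions of motif matches of either strand in the promoter windows of the 39 genes, with the first base of each match on the x axis in bases from the start site (vertical line) and 1 gene per row. Circles are CHR hexamers, crosses the CHR variant and bars CCAAT boxes. CHR hexamers gather at the start site, with 26 of 27 nearest matches within 100 bases.

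Over the whole list, fl/fl EBd2 stood apart from the other 3 groups. Summed over the 48 genes, the level was 10707 and 10615 CPM in KO-labelled and 8127.8 and 8274.4 CPM in fl/fl EBd2. The ES cell sums were 11335 and 11352 CPM in KO-labelled and 11190 and 11387 CPM in fl/fl libraries. In 31 of the 48 genes both fl/fl EBd2 libraries lay below the other 6 libraries, and in 7 both KO-labelled EBd2 libraries did. How many of all genes tested do so was not counted. Separation is common here: KO-labelled and fl/fl EBd2 did not overlap in 79.7% of all genes tested. For fl/fl EBd2 and fl/fl ES cells that share was 78.9%. Both shares count either direction between a pair of groups, so they are no measure for the 31 genes. In bulk RNA, fewer cells in mitosis and less of a transcript in each such cell cannot be told apart. Per kilobase of exon, Cdc20, the APC/C activator, had the highest level of the 48 in KO-labelled EBd2, at 203.9 ± 10.4 CPM per kb, and in fl/fl EBd2, at 155.1 ± 0.552 CPM per kb. Top2a, the topoisomerase that untangles sister chromatids, led in KO-labelled ES cells at 211.5 ± 0.427 CPM per kb and in fl/fl ES cells at 181.7 ± 4.63 CPM per kb (SD, n = 2). Cdc25c was the lowest of the 48 per kb in KO-labelled EBd2, fl/fl EBd2 and KO-labelled ES cells, at 5.633, 4.691 and 8.514 CPM per kb, and Nuf2 was the lowest in fl/fl ES cells at 8.62 CPM per kb.

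**Figure D2:**
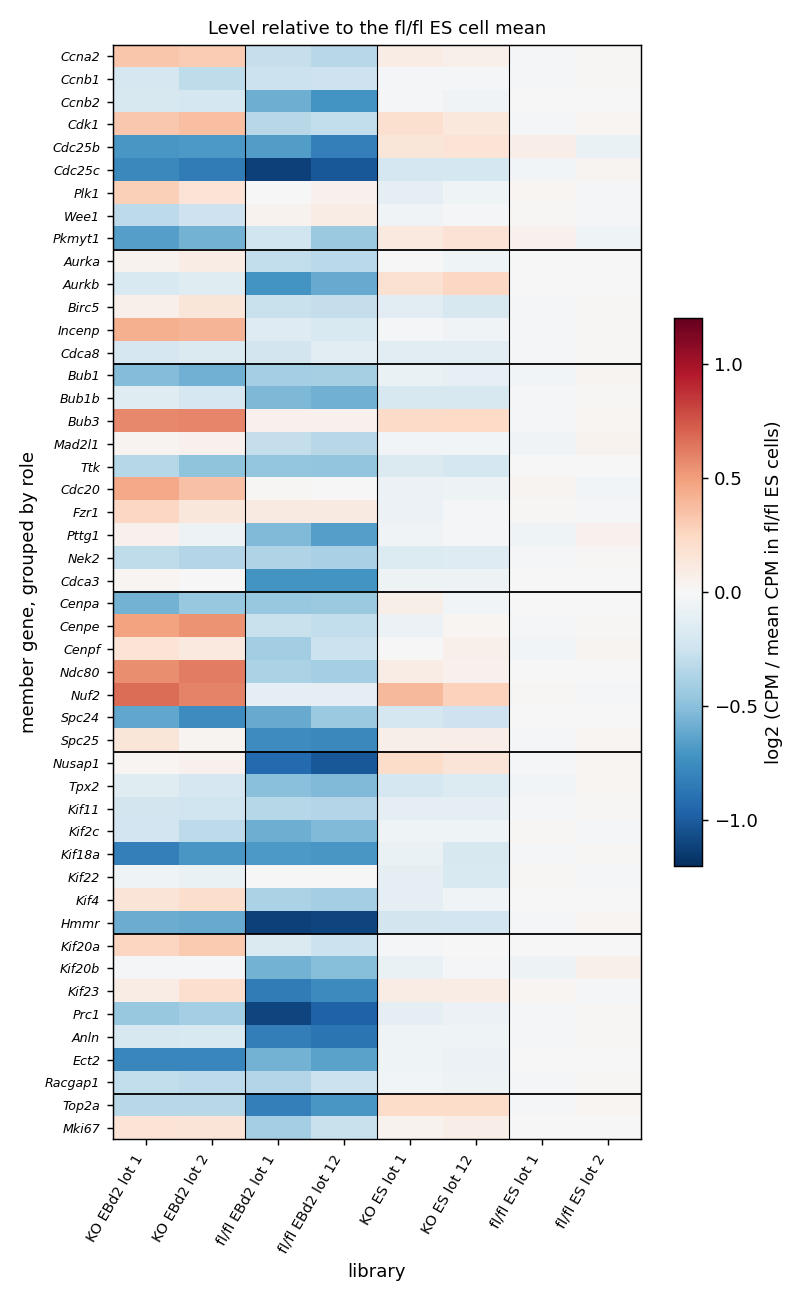
Level of each of the 48 genes (rows, grouped by role) in each of the 8 libraries (columns), as log2 of its CPM over the mean CPM in fl/fl ES cells, from blue (lower) to red (higher). The fl/fl EBd2 columns are blue for most genes, with both of them below the other 6 libraries in 31 genes. How many of all genes tested do so was not counted. The KO-labelled EBd2 columns hold red and blue genes.

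The first comparison asked how KO-labelled EBd2 differ from fl/fl EBd2. The largest rises in KO-labelled EBd2 were those of Nusap1, a spindle assembly gene, at 2.026-fold, Ndc80 at 1.978-fold, Kif23 at 1.925-fold and Spc25 at 1.807-fold. The kinase genes that restrain CDK1, Wee1 and Pkmyt1, stood lower, at 0.7874-fold and 0.8319-fold. By edgeR's quasi-likelihood test with Benjamini-Hochberg adjustment over 16542 genes (called below an adjusted p of 0.05), 33 of the 48 genes were higher, 4 were lower and 11 were not called. Of all genes tested, 62.2% were called, 30.7% higher and 31.5% lower. The median log2 fold change was 0.39 over the 48 genes and 0.0040 over all genes tested. In 43 of the 48 genes the groups did not overlap, against 79.7% of all genes tested. Scaling by library size alone moved the median of all genes by 0.227 on the log2 scale and that of the 48 genes to 0.617. A change of scaling moves all genes nearly alike. The distance between the medians, 0.386 against 0.3856 with TMM, is therefore kept by construction and is no check of the result. With library size alone 43 of the 48 genes were higher and 1 lower, and of all genes tested 7075 were higher and 3345 lower. Of the 11 genes not called with TMM, 10 were then called higher, Spc24 being the exception, and 3 lower calls were lost.

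**Figure D3:**
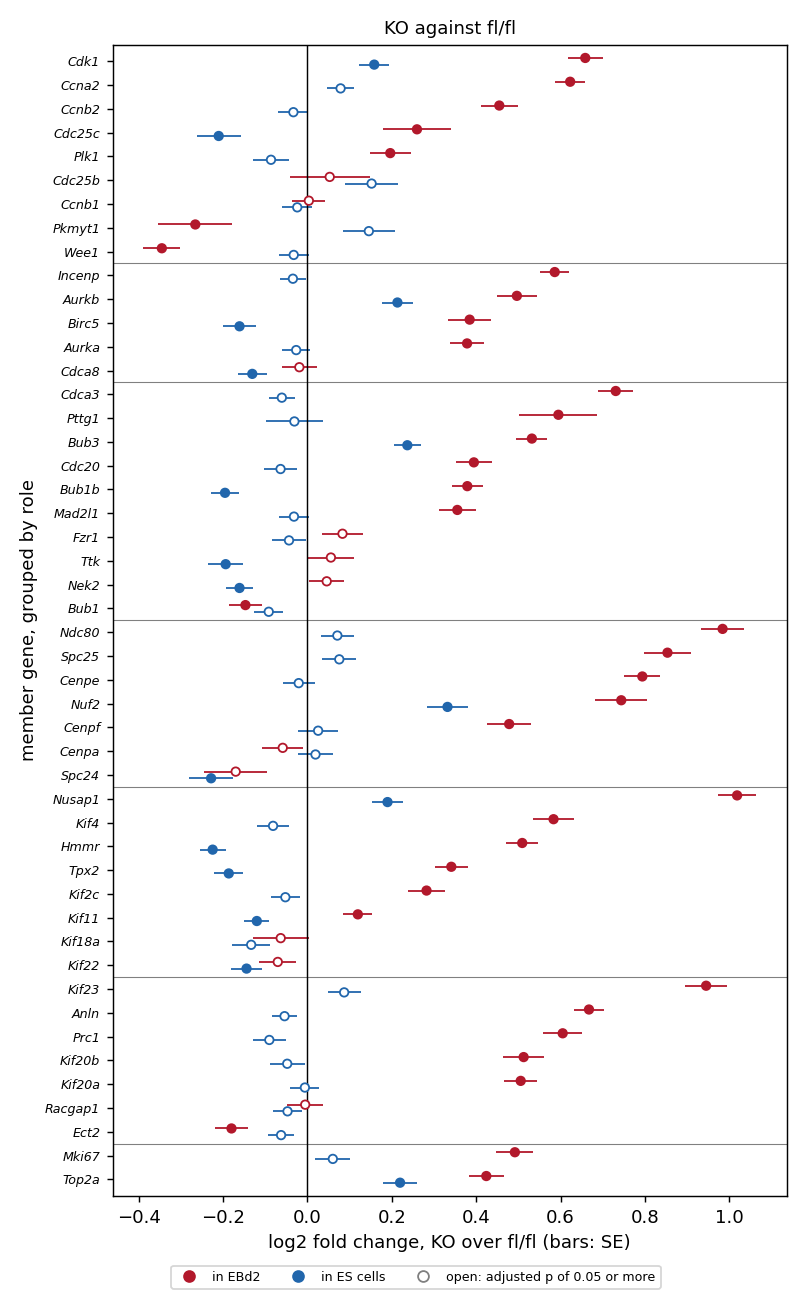
Log2 fold change of KO over fl/fl (x axis, bars: SE, n = 2 libraries a group) for the 48 genes (rows, grouped by role) in EBd2 and in ES cells, with EBd2 in red, ES cells in blue and open points for an adjusted p of 0.05 or more. The EBd2 points run from -0.34 (Wee1) to 1.02 (Nusap1) with 33 called higher, while the ES cell points stay between -0.23 (Spc24) and 0.33 (Nuf2).

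Among the 9 kinases, cyclins and phosphatases of mitotic entry, 5 rose and 2 fell in KO-labelled EBd2. The shares over all genes tested were 30.7% higher and 31.5% lower. Cdk1 (chr10:69335146-69352938, minus strand, GENCODE vM21 on GRCm38), the kinase itself, was at 241.2 and 247.2 CPM in KO-labelled and 152.6 and 156.7 CPM in fl/fl EBd2. In ES cells Cdk1 was at 219.2 and 210.2 CPM in KO-labelled and 188.7 and 196.1 CPM in fl/fl libraries. The fl/fl EBd2 libraries were the lowest of the 8 and the KO-labelled EBd2 libraries the highest, a rise of 0.66 ± 0.041 in EBd2 (log2 fold change ± SE, adjusted p = 9.65e-08). Ccna2, whose cyclin A2 pairs with CDK1 in G2, rose by 0.62 ± 0.036, and Ccnb2, which encodes a B-type cyclin, rose by 0.45 ± 0.044. Ccnb1, the gene of the main mitotic B-type cyclin, did not follow and was at 444.6 and 414.6 CPM in KO-labelled and 427.2 and 429.6 CPM in fl/fl EBd2. In ES cells Ccnb1 was at 501.8 and 503 CPM in KO-labelled and 504.8 and 516.8 CPM in fl/fl libraries. Its EBd2 groups overlapped, below both ES cell groups, with a log2 fold change of 0.0036 ± 0.039 (adjusted p = 0.944) that was called at 0.23 with library size as the sole scaling. Plk1, the gene of a polo-like kinase that promotes CDK1 activation and spindle assembly, was at 224.2 and 205.9 CPM in KO-labelled and 183.7 and 191.1 CPM in fl/fl EBd2. In ES cells Plk1 was at 169.4 and 176.9 CPM in KO-labelled and 186.3 and 181.2 CPM in fl/fl libraries. The KO-labelled EBd2 libraries were the highest, but the rise of 0.20 ± 0.048 (adjusted p = 0.00421) missed the threshold without lot 1 of KO-labelled EBd2, at 0.13 with adjusted p = 0.0505.

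The genes that set the phosphorylation of CDK1 include 2 inhibitory kinases, both called lower in EBd2, and 2 CDC25 phosphatases, of which Cdc25c was called higher, and of these calls that of Wee1 alone held under all 17 alternatives. Wee1 (chr7:110122046-110143286, plus strand), the gene of an inhibitory kinase of CDK1, was at 99.55 and 104.6 CPM in KO-labelled and 127.5 and 131.8 CPM in fl/fl EBd2. In ES cells Wee1 was at 120.1 and 122.2 CPM in KO-labelled and 124.8 and 123 CPM in fl/fl libraries. The KO-labelled EBd2 libraries were below the other 6, and the level fell by 0.34 in EBd2 (log2, SE 0.044, adjusted p = 3.22e-05). Pkmyt1 (chr17:23726336-23736735, plus strand), the gene of the membrane-bound kinase with the same role, was at 28.51 and 30.5 CPM in KO-labelled and 38.19 and 33.12 CPM in fl/fl EBd2. In ES cells Pkmyt1 was at 49.14 and 50.98 CPM in KO-labelled and 46.85 and 43.58 CPM in fl/fl libraries. Its KO-labelled EBd2 libraries were again the lowest, at -0.27 ± 0.088 (adjusted p = 0.021). That call was lost without lot 1 of KO-labelled EBd2 (-0.22), without lot 1 of fl/fl EBd2 (-0.17), with library size as the sole scaling (-0.038), at equal depth (-0.22) and in a fit of the EBd2 libraries alone (-0.24). Cdc25c, the gene of a phosphatase that activates CDK1, was at 28.32 and 27.1 CPM in KO-labelled and 22.26 and 23.89 CPM in fl/fl EBd2. In ES cells Cdc25c was at 41.96 and 41.8 CPM in KO-labelled and 47.25 and 49.68 CPM in fl/fl libraries. Both EBd2 groups lay below both ES cell groups, and the rise of 0.26 ± 0.080 in EBd2 (adjusted p = 0.0147) lost its call without lot 1 of KO-labelled EBd2 (0.22) or lot 1 of fl/fl EBd2 (0.21). Cdc25b, the gene of a relative that starts activation at the centrosome, was at 24.99 and 25.13 CPM in KO-labelled and 25.5 and 22.96 CPM in fl/fl EBd2. In ES cells Cdc25b was at 44.86 and 45.37 CPM in KO-labelled and 42.81 and 38.3 CPM in fl/fl libraries. Stage set its libraries apart, and in EBd2 the genotypes overlapped (0.053 ± 0.094, adjusted p = 0.649).

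Of the 5 genes of the Aurora kinases and the chromosomal passenger complex, 4 rose in KO-labelled EBd2, as did 30.7% of all genes tested. Incenp, the gene of the scaffold of the complex, had the largest change and was at 312.3 and 307.3 CPM in KO-labelled and 207.9 and 204.8 CPM in fl/fl EBd2. In ES cells Incenp was at 227.7 and 225 CPM in KO-labelled and 229.8 and 233.9 CPM in fl/fl libraries. KO-labelled EBd2 were the highest of the 4 groups, with a rise of 0.59 ± 0.034 over fl/fl EBd2 (adjusted p = 5.58e-08). Aurkb, the gene of the kinase of the complex, was at 133.5 and 136.4 CPM in KO-labelled and 91.89 and 99.12 CPM in fl/fl EBd2. In ES cells Aurkb was at 171.7 and 179.1 CPM in KO-labelled and 151.4 and 151.1 CPM in fl/fl libraries. It was higher in the KO-labelled libraries at both stages, by 0.50 ± 0.048 in EBd2 (adjusted p = 3.55e-06). Birc5, which encodes survivin, was at 94.65 and 100.4 CPM in KO-labelled and 75.16 and 74.42 CPM in fl/fl EBd2. In ES cells Birc5 was at 82.9 and 79.39 CPM in KO-labelled and 89.97 and 91.5 CPM in fl/fl libraries. It rose by 0.38 ± 0.051 in EBd2 (adjusted p = 4.45e-05), while in ES cells the KO-labelled libraries were the lower ones. Aurka, the gene of the spindle pole kinase Aurora A, was at 182.7 and 188.4 CPM in KO-labelled and 144.4 and 141.3 CPM in fl/fl EBd2. In ES cells Aurka was at 177.1 and 170.3 CPM in KO-labelled and 178 and 175.8 CPM in fl/fl libraries. The fl/fl EBd2 libraries lay below the other 6, and the rise in EBd2 was 0.38 ± 0.040 (adjusted p = 7.79e-06). Cdca8, which encodes borealin, was not called in EBd2, at -0.019 ± 0.042.

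Of the 10 genes of the spindle checkpoint and the APC/C activators, 6 rose in KO-labelled EBd2 and Bub1 fell. Higher calls made up 30.7% of all genes tested and lower calls 31.5%. Cdc20 was at 394.7 and 367.1 CPM in KO-labelled and 290.4 and 288.9 CPM in fl/fl EBd2. In ES cells Cdc20 was at 274.6 and 276.3 CPM in KO-labelled and 295 and 280.6 CPM in fl/fl libraries. KO-labelled EBd2 exceeded the other 6 libraries, with a rise of 0.39 ± 0.043 over fl/fl EBd2 (adjusted p = 9.11e-06). Fzr1, which encodes CDH1, the activator that takes over from CDC20 late in mitosis, was at 123.2 and 114 CPM in KO-labelled and 112 and 111.7 CPM in fl/fl EBd2. In ES cells Fzr1 was at 98.68 and 102.6 CPM in KO-labelled and 104.9 and 102.4 CPM in fl/fl libraries. Lot 1 of KO-labelled EBd2 was the highest of the 8 libraries. The difference of 0.083 ± 0.049 in EBd2 was not called (adjusted p = 0.161), but was called without lot 2 of KO-labelled EBd2 (0.14), with the stricter filter on low counts (0.13) and with library size as the sole scaling (0.31). Bub3, whose product carries BUB1 and BUBR1 to kinetochores, was at 210.6 and 211.6 CPM in KO-labelled and 146 and 146 CPM in fl/fl EBd2. In ES cells Bub3 was at 165.7 and 167.2 CPM in KO-labelled and 138.9 and 143.6 CPM in fl/fl libraries. It was higher in the KO-labelled libraries at both stages, by 0.53 ± 0.037 in EBd2 (adjusted p = 2.16e-07).

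The kinase gene Bub1 and its relative Bub1b, which encodes BUBR1, parted. Bub1b was at 328.1 and 316 CPM in KO-labelled and 251 and 244.4 CPM in fl/fl EBd2. In ES cells Bub1b was at 317.5 and 317.8 CPM in KO-labelled and 359 and 368.3 CPM in fl/fl libraries. The fl/fl EBd2 libraries were the lowest and the fl/fl ES cell libraries the highest, and the rise in EBd2 was 0.38 ± 0.037 (adjusted p = 3.56e-06). Bub1 was at 227.7 and 218.9 CPM in KO-labelled and 246.5 and 247.7 CPM in fl/fl EBd2. In ES cells Bub1 was at 308.3 and 304.8 CPM in KO-labelled and 318.8 and 334.5 CPM in fl/fl libraries. KO-labelled EBd2 were the lowest of its 4 groups, and the level fell by 0.15 in EBd2 (log2, SE 0.040, adjusted p = 0.00733). That call was lost without lot 2 of KO-labelled EBd2 (-0.12), and the value turned to 0.081 with library size as the sole scaling. Of the rest, Cdca3, whose product helps to destroy WEE1, rose by 0.73, Pttg1, which encodes securin, by 0.59 and Mad2l1, which encodes the checkpoint protein MAD2, by 0.36. The checkpoint kinase gene Ttk and the centrosome kinase gene Nek2 were not called, at 0.056 and 0.046.

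The kinetochore genes, of which 5 of 7 rose and 0 fell, divided within the NDC80 complex. Beside this stand 30.7% of all genes tested called higher and 31.5% lower. Ndc80 (chr17:71496100-71526857, minus strand), the gene of the subunit that grips the microtubule, was at 100.9 and 105.4 CPM in KO-labelled and 52.63 and 51.81 CPM in fl/fl EBd2. In ES cells Ndc80 was at 73.13 and 71.09 CPM in KO-labelled and 68.95 and 68.34 CPM in fl/fl libraries. KO-labelled EBd2 were the highest of the 4 groups and fl/fl EBd2 the lowest, a rise of 0.98 ± 0.050 (adjusted p = 1.93e-08). Nuf2, the gene of its direct partner, was at 86.81 and 82.46 CPM in KO-labelled and 50.33 and 50.65 CPM in fl/fl EBd2. In ES cells Nuf2 was at 71.53 and 66.09 CPM in KO-labelled and 55.29 and 54.03 CPM in fl/fl libraries. The KO-labelled libraries were the higher ones at both stages, by 0.74 ± 0.061 in EBd2 (adjusted p = 8.65e-07). Spc25 (chr2:69193895-69206194, minus strand), whose product anchors the complex at the inner kinetochore, was at 99.65 and 92.3 CPM in KO-labelled and 53.44 and 52.73 CPM in fl/fl EBd2. In ES cells Spc25 was at 94.45 and 95.38 CPM in KO-labelled and 88.67 and 91.5 CPM in fl/fl libraries. Its fl/fl EBd2 libraries were far below the other 6, which lay close together, and the rise was 0.85 ± 0.055 (adjusted p = 1.24e-07). Spc24, the gene of the subunit that pairs with SPC25, was at 37.43 and 34.25 CPM in KO-labelled and 37.92 and 42.35 CPM in fl/fl EBd2. In ES cells Spc24 was at 49.9 and 48.71 CPM in KO-labelled and 57.72 and 57.79 CPM in fl/fl libraries. Both KO-labelled EBd2 libraries were below both fl/fl EBd2 libraries, but the difference of -0.17 ± 0.075 missed the threshold (adjusted p = 0.0673). It was called without lot 1 of KO-labelled EBd2 (-0.24, adjusted p = 0.0405) or without lot 1 of fl/fl EBd2 (-0.25, adjusted p = 0.0338). Cenpe, the gene of a kinesin that carries chromosomes to the spindle equator, was at 366.3 and 379.4 CPM in KO-labelled and 216.8 and 213.5 CPM in fl/fl EBd2. In ES cells Cenpe was at 249 and 266.2 CPM in KO-labelled and 257.9 and 264.7 CPM in fl/fl libraries. KO-labelled EBd2 were again the highest group, with a rise of 0.79 ± 0.043 (adjusted p = 2.9e-08). Cenpf, whose product loads onto kinetochores in G2, rose by 0.48 ± 0.052, and Cenpa, the gene of the histone H3 variant that marks centromeres, was not called at -0.058 ± 0.049.

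Among the 8 genes of spindle motors and spindle assembly, 6 rose, against 30.7% of all genes tested, and Kif22 and Kif18a were not called. Nusap1 (chr2:119618298-119651244, plus strand), whose product bundles spindle microtubules, had the largest fold change of the 48 and was at 244.2 and 249.1 CPM in KO-labelled and 125.4 and 118.5 CPM in fl/fl EBd2. In ES cells Nusap1 was at 280.1 and 267.6 CPM in KO-labelled and 236.6 and 243.6 CPM in fl/fl libraries. The fl/fl EBd2 libraries were far below the other 6, and the rise was 1.02 ± 0.045 (adjusted p = 6.12e-09). Hmmr (chr11:40701395-40733422, minus strand), whose product binds microtubules and hyaluronan, was at 249.7 and 246.7 CPM in KO-labelled and 172.7 and 175.8 CPM in fl/fl EBd2. In ES cells Hmmr was at 323.1 and 321 CPM in KO-labelled and 369.6 and 382.9 CPM in fl/fl libraries. Both EBd2 groups lay below both ES cell groups, with a rise of 0.51 ± 0.038 in EBd2 (adjusted p = 3.51e-07). Kif18a, the gene of the motor that trims microtubule plus ends, was at 56.63 and 61.35 CPM in KO-labelled and 62.07 and 61.39 CPM in fl/fl EBd2. In ES cells Kif18a was at 94.58 and 87.31 CPM in KO-labelled and 98.55 and 101 CPM in fl/fl libraries. Its libraries separated by stage, and in EBd2 the genotypes differed by -0.063 ± 0.066 (adjusted p = 0.428). Of the other motors, the chromosome-bound Kif4 rose by 0.58, the microtubule depolymerase gene Kif2c by 0.28 and Kif11, whose product pushes spindle poles apart, by 0.12, a call lost without lot 1 of KO-labelled EBd2 (0.10, adjusted p = 0.0578). Tpx2, whose product activates Aurora A, rose by 0.34.

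The 7 genes of the central spindle and cytokinesis also split within a complex, with 5 higher, Ect2 lower and Racgap1 not called. Between the EBd2 groups, 30.7% of all genes tested were called higher and 31.5% lower. Kif23 (chr9:61915905-61946774, minus strand), the motor gene of centralspindlin, was at 186.9 and 202.4 CPM in KO-labelled and 98.64 and 103.5 CPM in fl/fl EBd2. In ES cells Kif23 was at 187.3 and 187.1 CPM in KO-labelled and 178.6 and 173.8 CPM in fl/fl libraries. The fl/fl EBd2 libraries were low and the other 6 close together, with a rise of 0.94 ± 0.049 (adjusted p = 2.34e-08). Racgap1, the partner gene in centralspindlin, stood at -0.0051 ± 0.042 (adjusted p = 0.925), and at a called 0.22 with library size as the sole scaling. Ect2 (chr3:27097222-27153878, minus strand), whose exchange factor centralspindlin recruits to activate RhoA, was at 191.6 and 191.7 CPM in KO-labelled and 223.1 and 211.5 CPM in fl/fl EBd2. In ES cells Ect2 was at 317.8 and 315 CPM in KO-labelled and 330.2 and 330.5 CPM in fl/fl libraries. It was lowest in KO-labelled EBd2 and fell by 0.18 (log2, SE 0.038, adjusted p = 0.00154), a value that turned to 0.048 with library size as the sole scaling. Prc1 (chr7:80294450-80316259, plus strand), whose product bundles the antiparallel microtubules of the midzone, was at 241.6 and 249.5 CPM in KO-labelled and 153.6 and 168.8 CPM in fl/fl EBd2. In ES cells Prc1 was at 306.1 and 314.9 CPM in KO-labelled and 328 and 333 CPM in fl/fl libraries. Both EBd2 groups lay below both ES cell groups, and the rise in EBd2 was 0.61 ± 0.047 (adjusted p = 5.14e-07). Anln, which encodes anillin, rose by 0.67, and the midzone kinesin genes Kif20b and Kif20a rose by 0.51 and 0.51. Of the 2 genes left, Top2a was at 1303 and 1298 CPM in KO-labelled and 929.7 and 1008 CPM in fl/fl EBd2. In ES cells Top2a was at 1909 and 1904 CPM in KO-labelled and 1608 and 1667 CPM in fl/fl libraries. It was higher in the KO-labelled libraries at both stages, by 0.42 ± 0.041 in EBd2 (adjusted p = 3.27e-06). Mki67, the gene of the proliferation marker that coats mitotic chromosomes, rose by 0.49 ± 0.044.

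**Figure D4:**
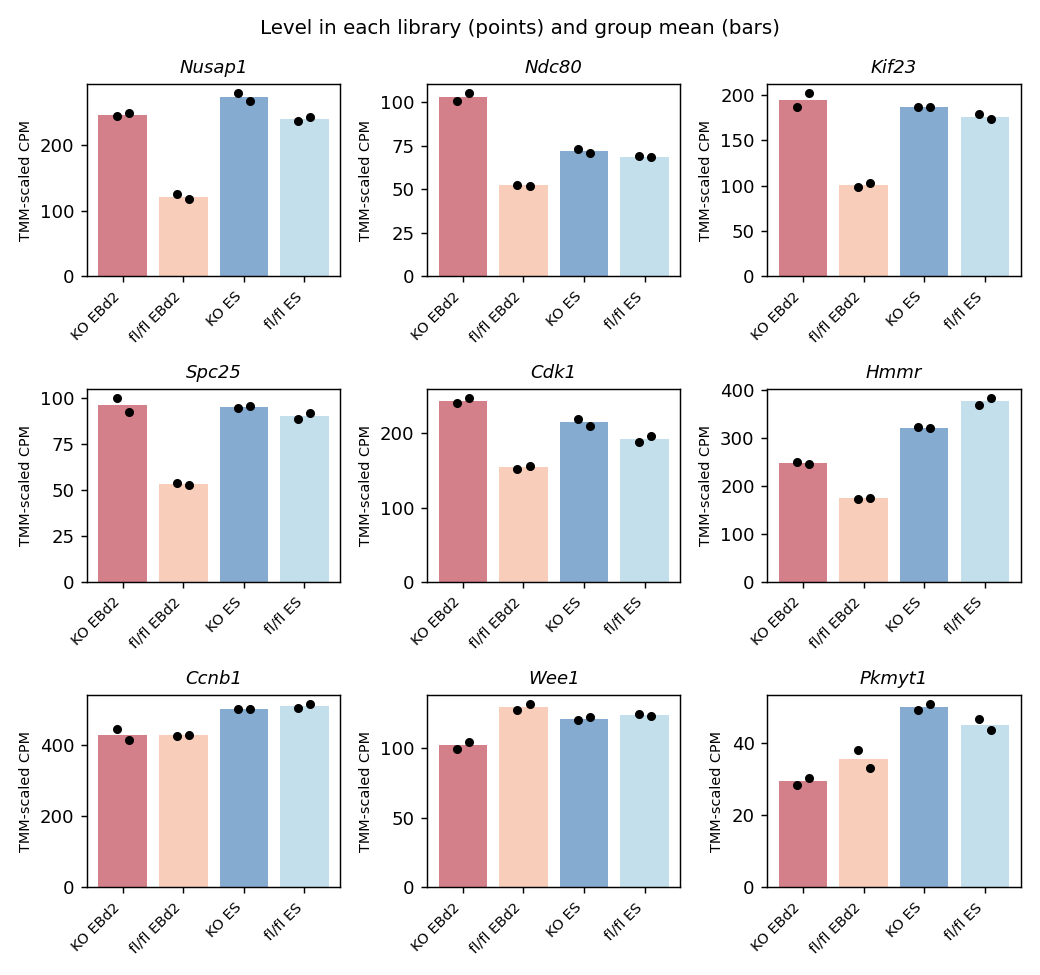
Level of 9 genes in TMM-scaled CPM (y axes from 0) in each library (points) and as the group mean (bars), with KO-labelled EBd2, fl/fl EBd2, KO-labelled ES cells and fl/fl ES cells from left to right. Nusap1, Ndc80, Kif23, Spc25, Cdk1 and Hmmr are lowest in fl/fl EBd2, the EBd2 groups of Ccnb1 overlap, and Wee1 and Pkmyt1 are lowest in KO-labelled EBd2.

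Since partners moved unequally, their counts were set against each other within a library, which no scaling touches. These pairs were chosen after the values were seen and carry no test. They compare libraries and not the amounts of a pair of transcripts, which differ in length. Reads of Ndc80 per read of Spc24 were 2.7 and 3.08 in KO-labelled and 1.39 and 1.22 in fl/fl EBd2. The ES cell ratios were 1.47 and 1.46 in KO-labelled and 1.19 and 1.18 in fl/fl libraries. The ratio was thus highest in KO-labelled EBd2. For Kif23 per read of Racgap1 the ratio was 1.24 and 1.36 in KO-labelled and 0.679 and 0.669 in fl/fl EBd2. Its ES cell values were 1.04 and 1.05 in KO-labelled and 0.978 and 0.928 in fl/fl libraries. Here too KO-labelled EBd2 stood above the other 3 groups. Cdk1 gave 2.42 and 2.36 reads per read of its inhibitor Wee1 in KO-labelled and 1.2 and 1.19 in fl/fl EBd2. The same ratio in ES cells was 1.82 and 1.72 in KO-labelled and 1.51 and 1.59 in fl/fl libraries, so that KO-labelled libraries were the higher ones at both stages. Incenp gave 2.25 and 2.17 reads per read of Cdca8 in KO-labelled EBd2 and 1.4 to 1.56 in the other 6 libraries. Ccnb2 gave 0.396 and 0.419 reads per read of Ccnb1 in KO-labelled and 0.312 and 0.285 in fl/fl EBd2, with 0.386 to 0.397 in ES cells, so that here the fl/fl EBd2 libraries were the ones apart.

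The next comparison set EBd2 against ES cells in fl/fl cells. By edgeR's quasi-likelihood test, 41 of the 48 genes were lower in fl/fl EBd2 than in fl/fl ES cells and 0 were higher, with 59% of all genes tested called, 28.9% higher and 30.1% lower. DESeq2 also called 0 higher, and 1 (Fzr1, at 0.11) was higher at an unadjusted p under 0.05. Fzr1 was called at 0.11 when lot 1 or lot 2 of KO-labelled EBd2 was left out, and in a fit of the fl/fl libraries alone. The KO-labelled EBd2 libraries are not compared here, but they enter the filter, the scaling and the estimate of the spread. The median log2 fold change was -0.40 over the 48 genes and -0.018 over all genes tested, and the groups did not overlap in 45 genes, against 78.9% of all genes tested. Hmmr fell by 1.11 (log2, SE 0.035, adjusted p = 7.38e-10), the largest change. Cdc25c fell by 1.07 (SE 0.069), Prc1 fell by 1.03 (SE 0.044) and Nusap1 fell by 0.98 (SE 0.043). All 7 genes of the central spindle and cytokinesis fell, with a median of -0.61, and so did all 5 of the chromosomal passenger group, with a median of -0.28. The 7 genes not called were Plk1 (0.029), Wee1 (0.066), Cdc20 (0.0089), Fzr1 (0.11), Bub3 (0.048), Kif22 (0.0052) and Nuf2 (-0.11). Feeder markers moved with this step, at 40.32 and 45.09 CPM in fl/fl EBd2, against 527.4 and 563 CPM in fl/fl ES cells, and so did the pluripotency list, at 1945 and 2025 CPM in fl/fl EBd2, against 3467 and 3475 CPM in fl/fl ES cells. Their part in the result was not tested.

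In KO-labelled cells the same step gave both directions. In KO-labelled EBd2, 14 genes were higher and 22 lower than in KO-labelled ES cells, with 64.8% of all genes tested called, 31.7% higher and 33.1% lower. The median log2 fold change was 0.014 over the 48 genes and -0.0023 over all genes tested, and the groups did not overlap in 42 genes, against 83% of all genes tested. Cenpe rose by 0.53 ± 0.039 (adjusted p = 3.41e-07), Ndc80 by 0.52 ± 0.041 (adjusted p = 6.33e-07), Cdc20 by 0.47 ± 0.040 and Incenp by 0.45 ± 0.031. At the other end stood Cdc25b at -0.85 ± 0.075 (adjusted p = 1.59e-06), Pkmyt1 at -0.76 ± 0.073, Ect2 at -0.72 ± 0.034 and Kif18a at -0.62 ± 0.054. Plk1 rose by 0.31, Birc5 by 0.27, Fzr1 by 0.24 and Cdk1 by 0.19. Ccnb1 fell by 0.23 and Wee1 fell by 0.25, and neither was called with library size as the sole scaling (-0.079 and -0.098). The call of Aurka, at 0.10 ± 0.036, was lost in 7 of the 8 fits that left out 1 library and stood at 0.063 without lot 12 of KO-labelled ES cells. With library size as the sole scaling, which moved the median of all genes by 0.148, 24 of the 48 genes were higher and 13 lower. Of all genes tested, 6665 were then higher and 4106 lower.

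Of these genes, 9 rose in KO-labelled EBd2 and fell in fl/fl EBd2, each against its own ES cells. Another 21 fell in both, 11 fell in fl/fl and were not called in KO, 5 rose in KO and were not called in fl/fl, and Wee1 fell in KO and was not called in fl/fl. The pair of comparisons shares no library. How many of all genes tested show each pattern was not counted, with 64.8% of them called in KO and 59% in fl/fl. By direction, 31.7% were higher and 33.1% lower in KO, and 28.9% and 30.1% in fl/fl. Such shares of single comparisons give no rate for a joint pattern. Those falling in both include Cdc25b, with -0.85 in KO and -0.75 in fl/fl, Cenpa with -0.53 and -0.45, and Ccnb1 with -0.23 and -0.25. Those rising in KO and falling in fl/fl include Ndc80, with 0.52 in KO and -0.40 in fl/fl, Cenpe with 0.53 and -0.28, and Incenp with 0.45 and -0.17.

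**Figure D5:**
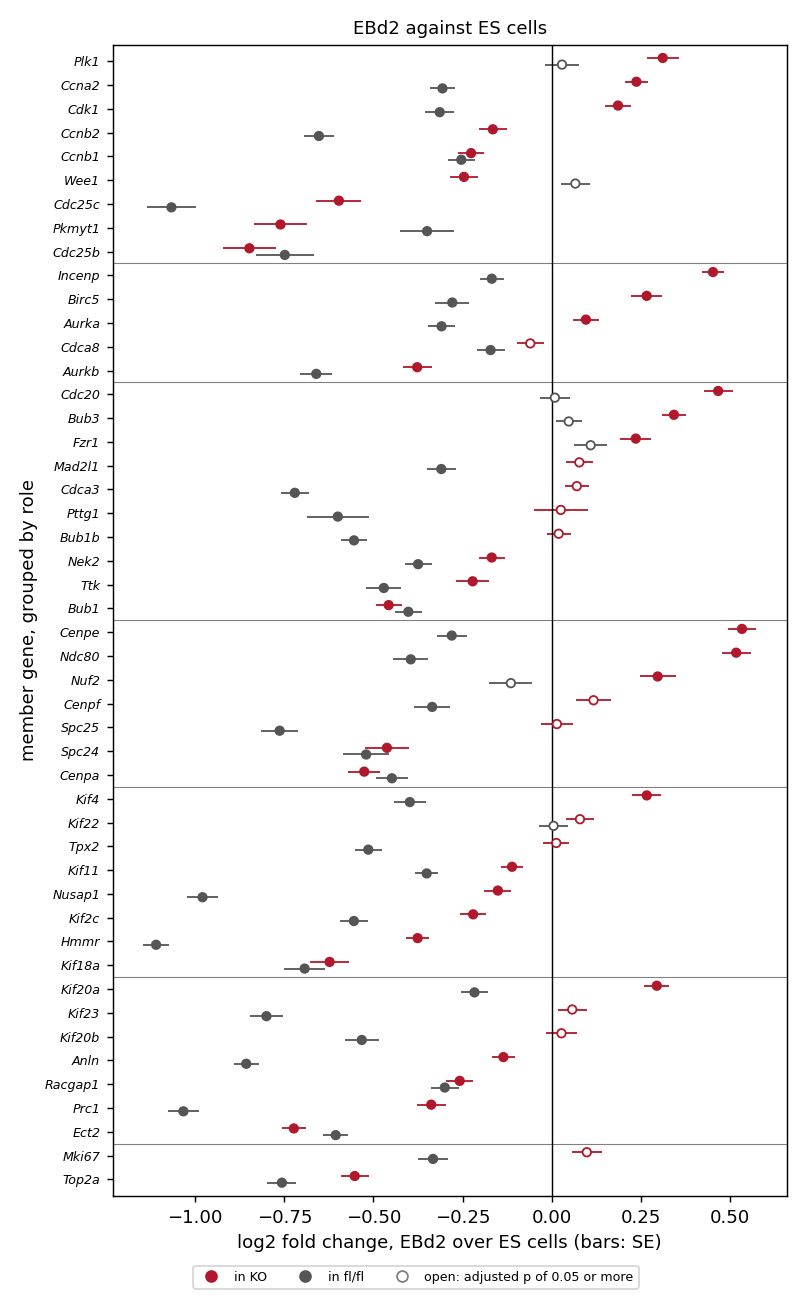
Log2 fold change of EBd2 over ES cells (x axis, bars: SE, n = 2 libraries a group) for the 48 genes (rows, grouped by role) in KO-labelled and in fl/fl cells, with KO in red, fl/fl in grey and open points for an adjusted p of 0.05 or more. The fl/fl points reach -1.11 (Hmmr) with 41 called lower and 0 higher, and the KO points lie on both sides of 0, with 14 called higher and 22 lower.

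In ES cells the genes lay closer together between genotypes. Of the 48, 6 were higher and 11 lower in KO-labelled than in fl/fl ES cells, with 23.7% of all genes tested called, 10.9% higher and 12.8% lower. The median log2 fold change was -0.039 over the 48 genes and 0.0043 over all genes tested, and the groups did not overlap in 39 genes, against 64.6% of all genes tested. Nuf2 rose by 0.33 ± 0.048 (adjusted p = 0.000714), Bub3 by 0.24 ± 0.032 (adjusted p = 0.000467), Top2a by 0.22 ± 0.039 and Aurkb by 0.21 ± 0.037, and the other 2 were Nusap1 (0.19) and Cdk1 (0.16). Hmmr fell by 0.22 (SE 0.031, adjusted p = 0.000562) and Bub1b fell by 0.20 (SE 0.032, adjusted p = 0.00166). Spc24 fell by 0.23 (SE 0.052, adjusted p = 0.00943), Cdc25c fell by 0.21 (SE 0.052, adjusted p = 0.0141) and Birc5 fell by 0.16 (adjusted p = 0.0139). Ccnb1 (-0.024), Plk1 (-0.086), Aurka (-0.026), Cdc20 (-0.063), Fzr1 (-0.043) and Wee1 (-0.032) were not called. In the central spindle and cytokinesis group 0 of 7 were called by edgeR or DESeq2, and 2 had an unadjusted p under 0.05, Prc1 at -0.09 and Kif23 at 0.087. Leaving out 1 ES cell library lowered the count of lower calls, among the 48 genes and among all genes tested. Leaving out 1 EBd2 library left that of the 48 genes unchanged. The median log2 fold change of the 48 genes was -0.037 without lot 1 of KO-labelled ES cells and -0.050 without their lot 12. It was -0.045 without lot 1 of fl/fl ES cells and -0.026 without lot 2 of fl/fl ES cells. With library size as the sole scaling 13 of the 48 genes were higher and 4 lower, against 2819 and 1089 of all genes tested. At equal depth 6 were higher and 5 lower, against 914 and 1068 of the 14979 genes then tested.

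Whether the genotype difference changed with stage was tested as an interaction, the log2 fold change of KO over fl/fl in EBd2 minus that in ES cells. It was positive and called in 35 genes and negative and called in 2, with 48% of all genes tested called, 22.4% positive and 25.7% negative. The median was 0.42 over the 48 genes and -0.0036 over all genes tested. Ndc80 had the largest value at 0.91 ± 0.064 (adjusted p = 7.04e-07), followed by Kif23 at 0.86 ± 0.063, Nusap1 at 0.83 ± 0.057 and Cenpe at 0.81 ± 0.057. The negative ones were Pkmyt1 (-0.41 ± 0.107, adjusted p = 0.00808) and Wee1 (-0.31 ± 0.056, adjusted p = 0.00076), both genes of inhibitory kinases of CDK1. Pkmyt1 was not called with library size as the sole scaling (-0.25) or at equal depth (-0.28), and Wee1 was called under all 16 alternatives. Genes whose interaction was not called include Ccnb1 (0.028 ± 0.053, adjusted p = 0.703) and Fzr1 (0.13 ± 0.064, adjusted p = 0.125), both called with library size as the sole scaling (0.18 and 0.28). Fzr1 was also called at equal depth (0.27), with the stricter filter (0.16) and without lot 2 of KO-labelled EBd2 (0.18), and Ect2 was called without lot 12 of fl/fl EBd2 (-0.16). The call of Ttk was lost without lot 1 of KO-labelled EBd2 (0.17), and that of Top2a without lot 1 of fl/fl EBd2 (0.14) or lot 2 of fl/fl ES cells (0.18). By calls, 21 genes were higher in EBd2 and not called in ES cells, 4 were lower in EBd2 and not called in ES cells, and 6 were higher at both stages. Another 6 were higher in EBd2 and lower in ES cells, 5 were lower in ES cells and not called in EBd2, and 6 were called at neither stage. These patterns were not counted over all genes tested, of which 62.2% were called in EBd2 and 23.7% in ES cells. By direction, 30.7% were higher and 31.5% lower in EBd2, and 10.9% and 12.8% in ES cells. Shares of single comparisons give no rate for a joint pattern.

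The promoter motifs were set beside these values as a description. Of the 27 genes with a CHR hexamer, 21 were higher and 1 lower in KO-labelled than in fl/fl EBd2, with a median log2 fold change of 0.45. Of the 12 with a window and no CHR hexamer, 6 were higher and 1 lower, with a median of 0.22. Values overlapped, from -0.18 to 0.98 with the hexamer and from -0.15 to 1.02 without it. Of all genes tested, 30.7% were called higher and 31.5% lower. Calls among all tested genes with a CHR hexamer were not counted. In fl/fl cells, 23 of the 27 and 10 of the 12 fell at the EBd2 stage, with medians of -0.45 and -0.34. The share called lower there was 30.1% of all genes tested. Exceptions run both ways: Nusap1, with none of the 4 motifs in its window, rose most in KO-labelled EBd2, and Ect2, with 2 CHR hexamers and 3 CCAAT boxes, fell.

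Genes around this machinery, from 5 further lists, were read in KO-labelled against fl/fl EBd2, where 30.7% of all genes tested were called higher and 31.5% lower. In the constitutive centromere and outer kinetochore, 18 of 27 genes were higher and 3 lower, with a median log2 fold change of 0.33. Cenpm, whose product belongs to the centromere-bound network, rose by 1.89 and Zwint, of the outer kinetochore, by 0.84. Cenpc1, whose product binds CENP-A nucleosomes, fell by 0.56 and Pmf1, of the MIS12 complex, fell by 0.51. At the centrosome and spindle pole, 12 of 27 were higher and 7 lower, with a median of 0.12. Bora, whose product helps Aurora A activate PLK1, rose by 0.98 and Ckap2 by 0.77, while Plk4, the kinase gene of centriole duplication, fell by 0.80 and Ckap5, which encodes a microtubule polymerase, fell by 0.41. Cohesin and condensin had 7 of 20 higher and 9 lower, with a median of -0.014. The condensin gene Smc2 rose by 0.76 and Espl1, which encodes separase, by 0.62, while the cohesin genes Stag2 and Pds5a stood at -1.10 and -0.51. APC/C subunits and F-box regulators had 5 of 20 higher and 8 lower, with a median of -0.078. Ccnf, which encodes an F-box protein, rose by 0.67 and Ube2c, the gene of a conjugating enzyme of the APC/C, by 0.59. Ube2s, also in this list, was lower in KO-labelled EBd2, at 321.8 and 308.4 CPM, than in fl/fl EBd2, at 385.4 and 404.8 CPM. The subunit genes Anapc1 and Anapc2 stood at -0.56 and -0.30, and the call of Anapc2 was lost with library size as the sole scaling. Among 15 regulators of the MuvB, B-MYB, FOXM1 and DREAM group, 4 were higher and 5 lower, with a median of -0.14. Tfdp1, the gene of a dimer partner of E2F factors, rose by 0.53 and Foxm1 by 0.39. Nfyb, the gene of a CCAAT-binding subunit of NF-Y, fell by 0.76 and the repressor gene E2f4 fell by 0.63. Mybl2, which encodes B-MYB, was lower in KO-labelled EBd2, at 600.1 and 601.6 CPM, than in fl/fl EBd2, at 690.5 and 655.6 CPM.

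Some of the 48 genes share exon bases with a neighbour on the opposite strand, and the strand setting of the counting is not given, so reads of such a pair cannot be told apart there. Kif20a shares 29.3% of its exon bases with Cdc23, an APC/C subunit gene that stood at -0.11 in EBd2 (adjusted p = 0.0514). Kif4 shares 15.1% with Pdzd11, which rose by 0.90 ± 0.083. Cdc25c shares 12.7% with Gm3550, at 0.57 ± 0.638 (adjusted p = 0.458). Ccna2 shares 12.5% with Exosc9, which fell by 0.45, and Prc1 shares 11.1% with Rccd1, at -0.19 ± 0.128.

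Other markers moved with the comparison of the EBd2 libraries. Summed markers of the primitive streak (T, Mixl1 and Eomes) were 144.9 and 150.3 CPM in KO-labelled and 18.34 and 16.95 CPM in fl/fl EBd2. Those of primitive endoderm (Gata6, Gata4 and Sox17) were 139.7 and 142.3 CPM in KO-labelled and 31.96 and 33.9 CPM in fl/fl EBd2. Mitochondrial transcripts were 3.151% and 3.238% of counts in KO-labelled and 2.695% and 2.277% in fl/fl EBd2. The part that these markers, the feeder and epiblast lists and the mitochondrial share have in the results was not tested.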

How the data were processed

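RNA of 8 libraries was measured as a table in which the authors deposited raw counts of reads per gene symbol, whole numbers with no normalization. Of the upstream steps, the submitters' processing notes name Trim Galore 0.6.7, with GRCm38 and mm10 as builds. The aligner, counting tool, annotation and strand setting are not given in the sources used. Counts were analysed with edgeR 4.0.16 in R 4.3.3. Genes were filtered with filterByExpr by group, libraries scaled by TMM, and 4 group means fitted to all 8 libraries, because 2 libraries a group leave few degrees of freedom (4 residual and a median of 7.05 prior, with a common coefficient of variation of 3.4%). Two-sided quasi-likelihood tests were made for 5 contrasts, adjusted by Benjamini-Hochberg over 16542 genes at a threshold of 0.05. The standard error is the absolute log2 fold change over the square root of F. The test was also run on simulated counts with the same spread for every gene and few changed genes. In these data 62.2% of the genes tested were called between genotypes in EBd2, so that run cannot vouch for the error rate here. In each contrast, values are given for the 4 called genes with the largest rise and fall, and for 8 fixed regulators. Exon lengths and coordinates come from GENCODE vM21, promoter windows from RefSeq. The genes and lists were chosen with earlier results of these data known. The 17 alternatives were RLE and library-size scaling, no and a stricter filter (minimum count 50), each library left out, 2 replicate blocks, DESeq2 1.42.0, thinning to 7858452 counts and fits of only the groups compared (16 for the interaction, which needs all groups).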

Additional observations from a re-analysis of the deposited data

Results flagged for a closer look

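The interaction is given here as the log2 fold change of KO over fl/fl in EBd2 minus that in ES cells ± SE. By edgeR's quasi-likelihood test with Benjamini-Hochberg adjustment it was called in the 11 genes listed here and in 48% of all genes tested. Apart from the fixed regulators, these genes were picked as the called ones with the largest values in either direction. That they were called is therefore no separate evidence. Of the 8 fixed regulators, Ccnb1 and Fzr1 were not called. The largest values were 0.9129 ± 0.0639 for Ndc80 (adjusted p = 7.04e-07), 0.8577 ± 0.0631 for Kif23 (adjusted p = 9.85e-07), 0.8283 ± 0.0572 for Nusap1 (adjusted p = 6.59e-07) and 0.8142 ± 0.0572 for Cenpe (adjusted p = 7.34e-07). Among kinases and their partners the value was 0.5453 for Birc5, 0.5001 for Cdk1, 0.4581 for Cdc20, 0.405 for Aurka and 0.2826 for Plk1. In the opposite direction stood the CDK1 inhibitors Pkmyt1 at -0.4112 (adjusted p = 0.00808) and Wee1 at -0.3125 (adjusted p = 0.00076). Groups of 2 libraries are too small to single out an outlying library.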

How the results depend on the processing

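The 41 falls of fl/fl EBd2 were called under all 17 alternatives, as were 30 of 33 higher and 1 of 4 lower calls (Wee1) of KO-labelled against fl/fl EBd2, 13 of 14 higher and 13 of 22 lower calls of KO-labelled EBd2 against their ES cells, and 5 of 6 higher and 2 of 11 lower calls in ES cells. Of the interaction, 32 of 35 positive and 1 of 2 negative calls held under all 16. Values that changed sign or size are log2 fold changes, and where nothing else is said the cause was not tested. With library size as the sole scaling, which moves all genes alike, the median of the 48 genes was 0.03182 between genotypes in ES cells, 0.617 in EBd2, 0.1613 between stages in KO and 0.5782 for the interaction. The same scaling gave positive signs to Ccnb1 (0.04676), Aurka (0.04417), Cdc20 (0.007119), Fzr1 (0.02719) and Wee1 (0.03833) in ES cells, Ect2 (0.0478) and Bub1 (0.08064) in EBd2, and Kif11 (0.03631) and Anln (0.01222) between stages in KO. The stricter filter, which kept fewer genes, put the EBd2 median at 0.4375. The near-zero stage change of Cdc20 in fl/fl cells was -0.0008449 with RLE scaling, -0.0003914 with library size, -0.02056 with no filter, -0.03507 with a replicate block of 3 lots, -0.0008564 with DESeq2 and -0.03307 to 0.04132 with 1 library left out. Plk1 in that comparison was -0.0004948 with no filter, -0.04071 with the replicate block and -0.01015 to 0.05359 with 1 library left out. Between genotypes in EBd2, Ccnb1 was -0.001683 with no filter and -0.05272 to 0.05109 with 1 library left out, and its interaction was -0.02983 to 0.07405. In ES cells Ccnb1 was 0.006445 at equal depth and -0.04173 to 0.0003059 with 1 library left out, Wee1 was 0.04682 at equal depth, and Aurka was 0.001413 with the replicate block and -0.04928 to 0.00127 with 1 library left out. Leaving out 1 library put the median of the stage change in KO at -0.04274 to 0.01619 and the number of the 48 genes called in ES cells at 8 to 17, and equal depth, with fewer counts, put that number at 11. Over all genes tested together, deviations from the group mean were nearly uncorrelated between libraries of the same lot number (correlations of -0.02235 to 0.01826). Whether lots affect some of the genes was not tested. With the replicate block of 3 lots, 31 of the 48 genes were called higher and 3 lower in EBd2, and 6 and 7 in ES cells. Over all genes tested, the block gave 4276 higher and 4679 lower in EBd2, and 915 and 1321 in ES cells. That block lost the calls of Cdc25c, Pkmyt1 and Kif11 in EBd2 (adjusted p = 0.0552, 0.0683 and 0.0544) and of Pkmyt1 and Nek2 in the interaction (adjusted p = 0.0769 and 0.0722). Depth was lower in EBd2 than in ES cells, which leaves small differences there less certain.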
